A study of Mus musculus with 12 samples.

Results

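The genes described here encode soluble and microsomal enzymes that conjugate small molecules in the liver. These enzymes are the UDP-glucuronosyltransferases (Ugt), the soluble glutathione transferases (Gst) and the sulfotransferases (Sult). Members were the protein-coding genes whose symbol begins with Ugt1 to Ugt3, with Gst and a class letter, or with Sult and a number, except Gstz1, an enzyme of tyrosine breakdown. They needed at least 10 counts summed over 12 libraries, which left 58 genes of 55421 in the table: 20 Gst, 19 Ugt and 19 Sult genes. Another 5 genes with such names fell short, of which Ugt2a1, Ugt2a2 and Sult1c1 had no count at all. The nearest below the minimum was Gstt4 with 5 counts, and the nearest above it was Sult4a1 with 11.

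RNA was taken from livers of wild-type mice that carried a tumour of E0771, a mouse mammary carcinoma line, on day 21 after the cells had been placed in the second mammary fat pad. Housing was in climate chambers with free food and water and a cycle of equal light and dark, after 1 week of getting used to 6 °C (numbered 1 to 4 here), 22 °C (5 to 8) or 29 °C (9 to 12). Every group carried the tumour, and mice without one were not analysed here. Room temperature for laboratory mice is near 22 °C, and 29 °C is close to thermoneutrality. Both Balb/C and C57Bl6/J mice are mentioned in the labels, with no strain given for a single library. Since nothing ties a library to 1 animal, p-values stand for the scatter among libraries only.

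Conjugation makes fat-soluble molecules easier to excrete in bile or urine. Ugt enzymes, in the endoplasmic reticulum, add glucuronic acid from UDP-glucuronate to bilirubin, steroids, bile acids and drugs. Sult enzymes add sulfate from the donor PAPS to phenols, catecholamines, steroids and bile acids, and Gst enzymes join glutathione to reactive electrophiles. Hepatocytes are the main site of all these reactions, and several of the genes differ between male and female mice.

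Total counts per library lay between 7615585 and 19001126. Levels below are CPM, counts scaled to library totals that were corrected with TMM factors, and per-length levels are CPM per kilobase of exon. Summed markers of hepatocytes stood between 86100 and 198300 CPM in every library, and Xist, the female-specific RNA of the inactive X chromosome, between 1433 and 2869 CPM. Libraries 1, 7, 8 and 9 held 11.8 to 17.1 CPM (here by uncorrected library totals) of H2-Ea-ps, a pseudogene of the major histocompatibility complex. The other 8 held none. This split came from the data and not from the labels, and it crosses the temperature groups, with 1, 2 and 1 libraries at 6, 22 and 29 °C. Library 11 held intestinal transcripts.

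The summed level of the 58 members was lower at 29 °C than at 6 °C, as the plot of summed levels shows. Its mean was 4980 ± 910 CPM (SD, n = 4) in the cold, 4137 ± 1700 CPM at room temperature and 3098 ± 772 CPM at thermoneutrality. At 6 °C the 4 libraries stood at 4050, 4493, 6123 and 5254 CPM, and at 29 °C at 1941, 3460, 3497 and 3495 CPM. Every 6 °C library was above every 29 °C library, while the 22 °C libraries (5414, 5784, 2526 and 2822 CPM) fell into a high pair and a low pair. The low pair was libraries 7 and 8 with H2-Ea-ps, and the high pair lay in the range of the 6 °C libraries. The Sult genes carried the widest ratio between the cold and warm groups, with 983 ± 194 CPM at 6 °C against 447 ± 95.6 CPM at 29 °C.

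**Figure D1:**
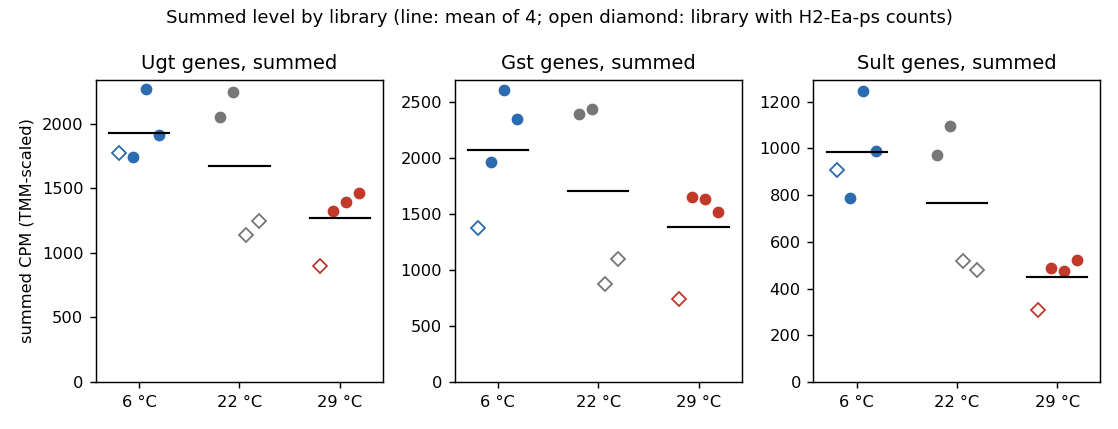
Summed CPM (TMM-scaled) of the 19 Ugt, 20 Gst and 19 Sult genes in each library at 6, 22 and 29 °C, with a line at the mean of 4 libraries and open diamonds for libraries with H2-Ea-ps counts. For the Sult genes the 29 °C libraries reach at most 520 CPM and the 6 °C libraries start at 789 CPM.

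Members differed widely in level. Per kilobase of exon, Gstm1, a mu-class glutathione transferase, was highest at 402 CPM per kb over all libraries. Sult1a1, which sulfates simple phenols, followed at 251, and Ugt1a1, the bilirubin glucuronosyltransferase, at 153. Gsta3, an alpha-class enzyme known in the mouse for detoxifying aflatoxin epoxide, stood at 116 CPM per kb and Ugt2b36 at 101. The Ugt1a value is uncertain, since the Ugt1a genes share their last exons and reads there cannot be assigned to 1 of them. In raw counts, Gstm1 and Gsta3 made up 34.5% and 29.0% of the Gst total, Sult1a1 made up 51.9% of the Sult total and Ugt1a1 20.6% of the Ugt total.

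Cold and thermoneutral housing, the widest contrast of the design, gave the only members that passed the test with 3 group means. Of 50 members with enough counts to be tested, 5 were lower at 29 °C than at 6 °C and none was higher by edgeR's quasi-likelihood test at an adjusted p under 0.05. These were Ugt2b1, Ugt2b36, Ugt2b37, Sult1d1 and Gstk1. That is 10% of the tested members, where 2.53% of all 15006 tested genes passed in either direction and 1.39% were lower. The count of 5 was 1 without library 10, 2 without library 2, 3, 4, 9 or 11, and 3 without library 12. The log2 fold change was below 0 for 46 of the 50 members, with a median of -0.73, against 49.9% of all tested genes and a median of 0.00. Counted over all 58 members with no filter, the mean was lower at 29 °C than at 6 °C in 49. In 35 the means were ordered with 6 °C highest, 22 °C between and 29 °C lowest, an order not counted over all tested genes. In the 8 libraries lacking H2-Ea-ps, the log2 fold change between 6 and 22 °C was above 0 in 27 of 50 members. In bulk tissue, fewer cells of a type and less RNA per cell cannot be told apart.

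**Figure D2:**
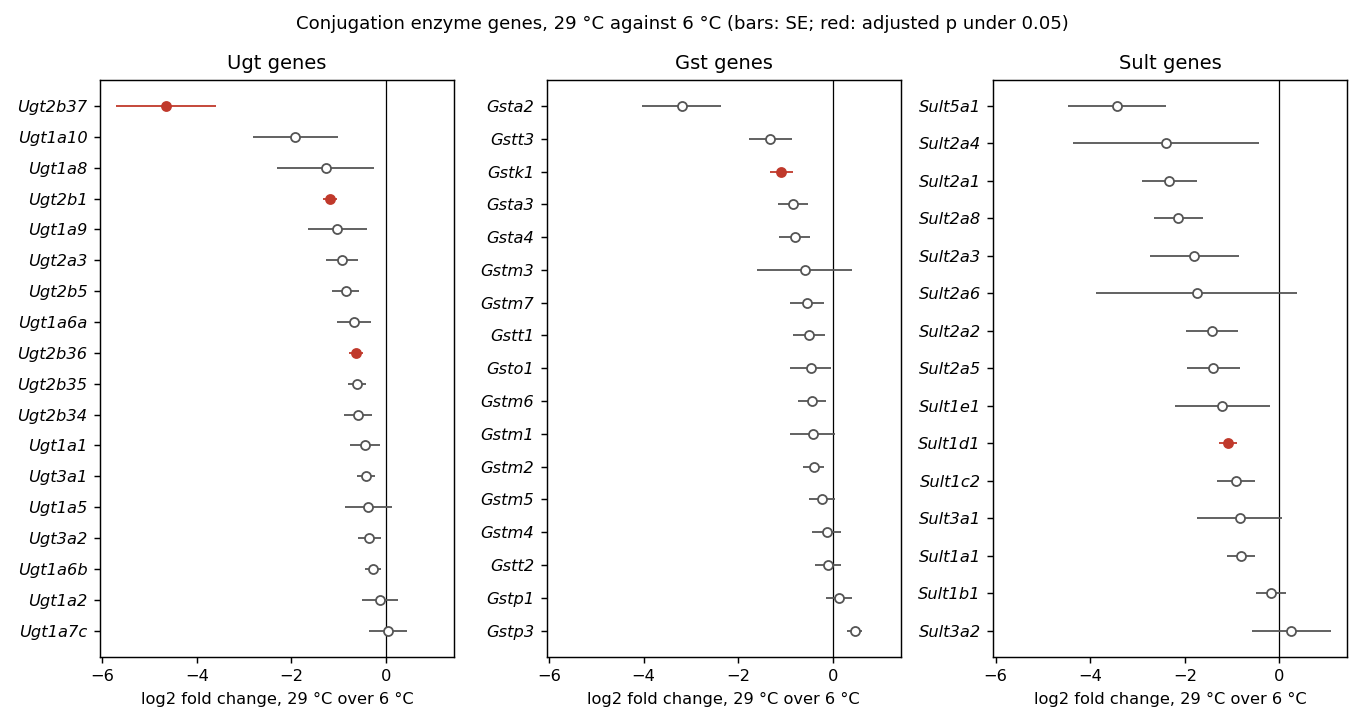
Log2 fold change (29 °C over 6 °C, bars: SE) of the 50 tested members, by family, in red where the adjusted p was under 0.05. Points lie left of 0 for 46 members, and the 4 to the right are Ugt1a7c, Gstp1, Gstp3 and Sult3a2.

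Ugt2b1, one of the Ugt2b enzymes that glucuronidate steroids, bile acids and drugs, had the lowest p of all members. Its level at 6 °C was 115, 93.6, 109 and 128 CPM in libraries 1 to 4. At 22 °C it was 80.2, 86.8, 75.3 and 96.5 CPM, and at 29 °C it was 57.6, 44.7, 51.9 and 41.6 CPM. All 29 °C libraries lay below all 22 °C and 6 °C libraries, while 22 °C and 6 °C overlapped. The log2 fold change between 29 and 6 °C was -1.19 (SE 0.14, edgeR adjusted p = 0.00347). The call held in 24 of 24 alternatives of scaling, filter, test, covariate and left-out library, with a largest adjusted p of 0.0284.

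Sult1d1, which in the mouse sulfates dopamine and other small phenols, showed a graded pattern. It stood at 140, 103, 111 and 114 CPM at 6 °C, at 73.2, 88.7, 87.1 and 59.9 CPM at 22 °C, and at 41.9, 48.1, 71.6 and 58.2 CPM at 29 °C. Each 6 °C library was above each library of the other groups, and 22 °C overlapped 29 °C through library 8. Between 29 and 6 °C it fell by 1.09 on the log2 scale (SE 0.18, edgeR adjusted p = 0.0154), and without library 10 the adjusted p was 0.0656. Between 6 and 22 °C the log2 fold change was 0.60 (SE 0.18, edgeR adjusted p = 0.269).

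Gstk1 encodes the kappa-class glutathione transferase of mitochondria and peroxisomes. Its level was 47.3, 80.0, 82.6 and 113 CPM at 6 °C, 54.4, 53.3, 43.3 and 43.1 CPM at 22 °C, and 24.4, 42.7, 39.3 and 46.0 CPM at 29 °C. The lowest 6 °C library was library 1 and the lowest 29 °C library was library 9, both with H2-Ea-ps. The groups at 6 and 29 °C were separate by a narrow margin, and Gstk1 fell by 1.08 (SE 0.24, edgeR adjusted p = 0.0369). The call was lost in 8 of 24 alternatives, among them each fit without 1 of libraries 2, 3, 4, 9, 10, 11 and 12, with adjusted p up to 0.106.

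Ugt2b36, an abundant Ugt2b gene, had means of 256 ± 28.4, 201 ± 19.7 and 165 ± 27.2 CPM (SD, n = 4 each) from the coldest to the warmest group. Its libraries at 6 °C held 291, 223, 261 and 249 CPM and those at 29 °C 125, 173, 187 and 175 CPM. The groups did not overlap and the log2 fold change was -0.63 (SE 0.16, edgeR adjusted p = 0.0492). It passed by so little that the call was lost in 16 of 24 alternatives, including every fit that left out 1 library (adjusted p up to 0.123).

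Ugt2b37 was scarce and had the widest fold change of the members. It had 11, 15, 30 and 40 counts in the 6 °C libraries, 24, 37, 6 and 1 at 22 °C, and 1, 0, 3 and 1 at 29 °C. In CPM, library 5 (2.215) lay in the range of the cold group (0.792 to 3.35) and library 6 (3.77) above it. Libraries 7 and 8, with H2-Ea-ps, lay below that range, and the lowest cold library was library 1, also with H2-Ea-ps. The fitted log2 fold change between 29 and 6 °C was -4.65 (SE 1.06, edgeR adjusted p = 0.0390), resting on 5 counts in the whole 29 °C group, and it was lost in 7 of 24 alternatives, each without 1 of libraries 2, 3, 4, 9, 10, 11 and 12. Of the 50-base words in its exons, 18.3% also occur in Ugt2b5 or Ugt2b38, so part of its reads could not be assigned with certainty. No such word of Ugt2b1, Sult1d1 or Gstk1 occurs in another gene, and of Ugt2b36 0.285% do.

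**Figure D3:**
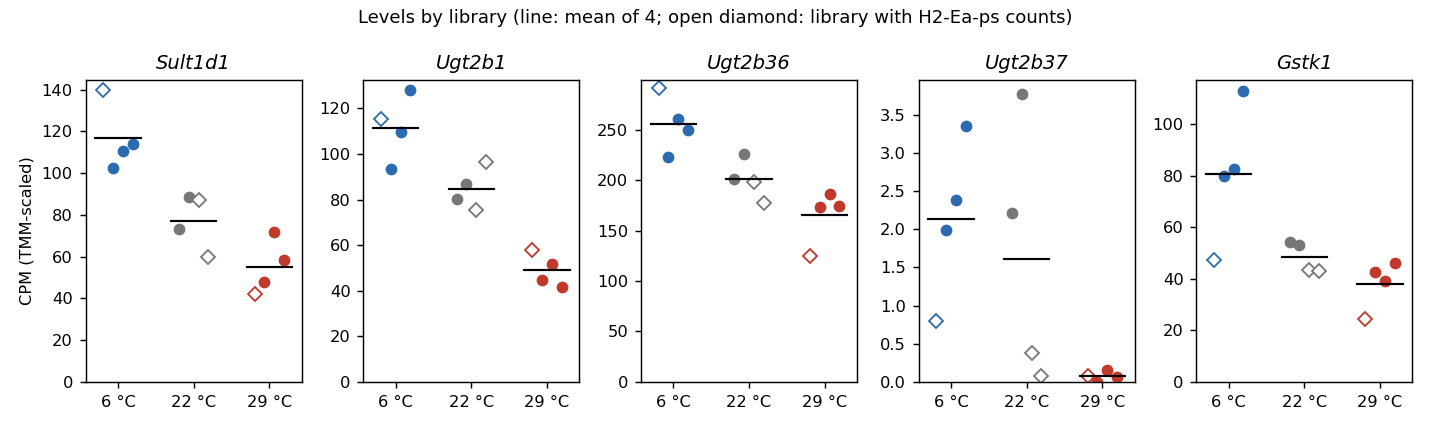
CPM (TMM-scaled) by library at 6, 22 and 29 °C for Sult1d1, Ugt2b1, Ugt2b36, Ugt2b37 and Gstk1, with a line at the mean of 4 libraries and open diamonds for libraries with H2-Ea-ps counts. In each panel every 29 °C library lies below every 6 °C library.

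Of these 5 genes, 4 sit in 1 gene cluster on chromosome 5. In GENCODE vM21 (GRCm38) the cluster of Ugt2 and Sult1 genes spans 702 kb, chr5:86889767-87591594, and holds 11 members, of which 10 were tested. All 10 had a log2 fold change below 0 between 29 and 6 °C, as did 46 of all 50 tested members. At the upstream end in chromosome order, Ugt2b34 stood at -0.60 (SE 0.30, edgeR adjusted p = 0.288) and Ugt2b35 at -0.61 (SE 0.20, adjusted p = 0.111). Further along, Ugt2b5 stood at -0.86 (SE 0.28, edgeR adjusted p = 0.117) and Ugt2a3 at -0.94 (SE 0.34, adjusted p = 0.152). Of the 50-base words of Ugt2b5, 41.7% occur in another gene, mostly in Ugt2b38. Beside Sult1d1, Sult1b1, which sulfates thyroid hormones and phenols, stood at -0.17 (SE 0.32, edgeR adjusted p = 0.822), and Sult1e1, the estrogen sulfotransferase, at -1.21 (SE 1.01, adjusted p = 0.551) with at most 2.14 CPM in any library. The table holds 20 other genes of the interval, of which 4, all pseudogenes, had enough counts to test and 1, Gm21049, passed (log2 fold change -1.63, edgeR adjusted p = 0.0482). The interval was singled out after the values had been seen.

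**Figure D4:**
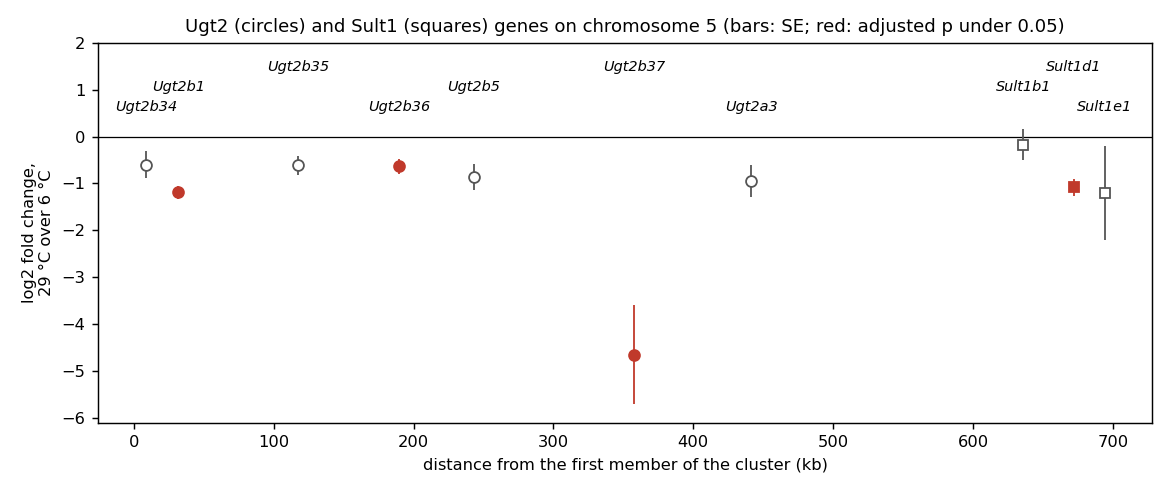
Log2 fold change (29 °C over 6 °C, bars: SE) of the 10 tested Ugt2 and Sult1 genes against distance in kb along the chromosome 5 cluster, in red where the adjusted p was under 0.05. All points lie below 0, with Ugt2b37 at -4.65 and Sult1b1 nearest to 0.

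Promoters of the cluster are shown because its Ugt2b genes share a match of exact letters that was not found in that of Sult1d1. Each run covers 250 bases before to 50 bases after the start site, from RefSeq (GRCm38.p6), 5′ to 3′, and capitals mark a palindrome searched on both strands as GTTA, 5 bases of any kind and TAAC.
Ugt2b1 (chr5:86926454-86926753, minus strand): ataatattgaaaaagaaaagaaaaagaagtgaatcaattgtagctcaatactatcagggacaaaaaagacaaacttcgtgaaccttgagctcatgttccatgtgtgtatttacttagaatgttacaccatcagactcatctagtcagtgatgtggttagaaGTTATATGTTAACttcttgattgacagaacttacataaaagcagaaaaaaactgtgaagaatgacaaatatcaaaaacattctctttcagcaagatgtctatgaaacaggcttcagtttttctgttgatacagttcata
Ugt2b36 (chr5:87092506-87092805, minus strand): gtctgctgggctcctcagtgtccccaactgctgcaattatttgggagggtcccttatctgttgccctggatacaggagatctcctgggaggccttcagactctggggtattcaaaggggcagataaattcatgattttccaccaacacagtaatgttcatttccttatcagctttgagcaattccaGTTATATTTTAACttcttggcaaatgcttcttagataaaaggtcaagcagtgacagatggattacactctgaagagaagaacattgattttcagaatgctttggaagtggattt
Ugt2b37 (chr5:87254739-87255038, minus strand): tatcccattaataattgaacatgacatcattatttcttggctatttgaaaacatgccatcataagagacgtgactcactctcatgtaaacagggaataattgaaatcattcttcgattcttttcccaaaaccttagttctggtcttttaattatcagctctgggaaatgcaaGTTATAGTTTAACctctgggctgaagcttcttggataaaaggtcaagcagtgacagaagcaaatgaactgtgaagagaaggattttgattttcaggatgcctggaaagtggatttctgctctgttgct
Ugt2b5 (chr5:87140291-87140590, minus strand): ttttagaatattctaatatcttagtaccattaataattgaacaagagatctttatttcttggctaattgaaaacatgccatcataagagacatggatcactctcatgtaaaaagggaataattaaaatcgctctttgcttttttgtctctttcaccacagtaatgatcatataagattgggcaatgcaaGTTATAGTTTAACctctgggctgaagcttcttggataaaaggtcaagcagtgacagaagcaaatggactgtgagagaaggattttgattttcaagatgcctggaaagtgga
Sult1d1 (chr5:87568957-87569256, minus strand): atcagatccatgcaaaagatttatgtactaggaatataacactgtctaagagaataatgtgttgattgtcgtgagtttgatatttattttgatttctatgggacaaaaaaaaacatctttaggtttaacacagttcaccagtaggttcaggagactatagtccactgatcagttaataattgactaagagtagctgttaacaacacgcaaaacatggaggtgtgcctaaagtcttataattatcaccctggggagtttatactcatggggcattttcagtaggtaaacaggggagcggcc
The palindrome ends 76 bases before the start site in Ugt2b1, 51 in Ugt2b36, 65 in Ugt2b37 and 48 in Ugt2b5. It occurred in 109 of 32851 RefSeq promoters of the same length (0.332%) and in 8 of 60 promoters of members (13.3%), which belong to 50 genes with an entry. These were all 7 Ugt2b members and Ugt3a1. The motif was chosen after the promoters had been read, and a match is only a match of letters. Near matches were not counted, among them gttaataattgac in Sult1d1, so the search does not set Sult1d1 apart from near forms. The nuclear receptor half-site AGGTCA, also searched on both strands, occurred in 16.3% of all promoters and 20% of member promoters, and the antioxidant response core TGACNNNGC in 12.4% and 5%.

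The Ugt1a genes are alternative first exons spliced to common last exons, and 52.1% to 80.2% of their 50-base words occur in another gene. None of the 9 passed the test between 29 and 6 °C, and 8 had a log2 fold change below 0. Ugt1a1 stood at 327, 301, 475 and 259 CPM at 6 °C, at 579, 637, 226 and 276 CPM at 22 °C, and at 180, 272, 223 and 326 CPM at 29 °C. The groups overlapped, with the 2 highest values in libraries 5 and 6, and the log2 fold change was -0.44 (SE 0.33, edgeR adjusted p = 0.490). Ugt1a10, at most 1.43 CPM, had the widest fold change of the 9 at -1.92 (SE 0.90, edgeR adjusted p = 0.260). Ugt3a2, whose human counterpart uses UDP-glucose and UDP-xylose as sugar donors, averaged 298 ± 64.3 CPM at 6 °C and 234 ± 59.2 CPM at 29 °C (SD, n = 4), with overlapping groups (log2 fold change -0.35, SE 0.24, edgeR adjusted p = 0.450).

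Sult2 enzymes sulfate hydroxysteroids and bile acids and are higher in female than in male mouse liver. Their summed level was 401, 244, 501 and 238 CPM at 6 °C, 335, 422, 184 and 145 CPM at 22 °C, and 47.3, 88.8, 103 and 116 CPM at 29 °C. All 29 °C libraries lay below all others, and the groups at 6 and 22 °C overlapped. All 7 tested Sult2 genes had a log2 fold change below 0 between 29 and 6 °C, from -1.39 to -2.40, and none passed the test. Sult2a1 averaged 154 ± 91.2 CPM at 6 °C, 105 ± 58.3 CPM at 22 °C and 30.6 ± 15.1 CPM at 29 °C (SD, n = 4; 29 against 6 °C -2.33, SE 0.58, edgeR adjusted p = 0.0606). Sult2a8, which acts on bile acids in the mouse, averaged 87.0 ± 28.4 CPM at 6 °C and 19.9 ± 14.3 CPM at 29 °C (-2.13, SE 0.52, edgeR adjusted p = 0.0580).

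The Sult2a genes share sequence, with 33.2% of the 50-base words of Sult2a1 and 62.1% of those of Sult2a2 found in another gene, and 1.96% of those of Sult2a8. Sult2a2 averaged 82.4 ± 38.1 CPM at 6 °C and 30.6 ± 11.9 CPM at 29 °C, with groups that did not overlap (-1.43, SE 0.56, edgeR adjusted p = 0.190). Outside Sult2, Sult1a1 held 341, 397, 593 and 585 CPM at 6 °C and 206, 326, 244 and 320 CPM at 29 °C. These groups did not overlap either, and the log2 fold change was -0.81 (SE 0.29, edgeR adjusted p = 0.150). Sult5a1 held 1.30, 12.4, 7.71 and 26.3 CPM at 6 °C and at most 1.97 CPM at 29 °C, with an overlap through library 1 (-3.44, SE 1.04, edgeR adjusted p = 0.104).

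Among glutathione transferases, 15 of 17 tested genes had a log2 fold change below 0 between 29 and 6 °C, with a median of -0.47, and Gstk1 alone passed. Gsta3 held 559, 613, 786 and 625 CPM at 6 °C and 198, 468, 394 and 383 CPM at 29 °C. The groups did not overlap, and the log2 fold change was -0.84 (SE 0.32, edgeR adjusted p = 0.172). Gsta2 held 1.30, 4.39, 7.15 and 18.4 CPM at 6 °C and 0.386, 0.682, 0.503 and 1.83 CPM at 29 °C, overlapping through library 1 (-3.20, SE 0.83, edgeR adjusted p = 0.0616). Of its 50-base words 49.8% occur elsewhere, mostly in Gsta1. Gstt3, of the theta class, averaged 66.6 ± 21.6 CPM at 6 °C and 26.7 ± 14.3 CPM at 29 °C with overlapping groups (-1.32, SE 0.45, edgeR adjusted p = 0.139). Gstt1, the theta-class enzyme for small halogenated compounds, averaged 160 ± 38.9 and 113 ± 43.7 CPM, again with overlap (-0.50, SE 0.34, edgeR adjusted p = 0.446).

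None of the 7 tested mu-class genes passed between 29 and 6 °C, and their groups all overlapped. Gstm1 averaged 667 ± 252 CPM at 6 °C, 612 ± 391 CPM at 22 °C and 497 ± 183 CPM at 29 °C (29 against 6 °C -0.42, SE 0.48, edgeR adjusted p = 0.680). Gstm6 stood at -0.43 (SE 0.30, edgeR adjusted p = 0.460). The pi class, which is higher in male than in female mouse liver, lay on the other side of 0. Gstp3 held 12.7, 12.9, 13.03 and 14.0 CPM at 6 °C and 16.7, 19.4, 18.3 and 18.5 CPM at 29 °C, the only member whose 29 °C libraries all lay above the 6 °C libraries (0.47, SE 0.16, edgeR adjusted p = 0.119). Without overlap, 13 members were lower (6.74% of all tested genes) and 1 was higher (6.56%), together 28% of the tested members against 13.3% of all tested genes.

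Between 29 and 22 °C no member passed, and none of the 15006 tested genes did (percent called: 0). At an unadjusted p under 0.05 there were 11 members of 50, against 14.9% of all tested genes, DESeq2 called 3 members (2.17% of all genes) and limma voom 1 (0.287%). The log2 fold change was below 0 in 43 of 50, with a median of -0.32, and in 50.4% of all tested genes. This rested in part on single libraries: it was 33 of 51 with a median of -0.16 without library 6, 35 of 51 with -0.20 without library 9, and 39 of 50 with -0.21 without library 5. Ugt2b1 stood at -0.79 (SE 0.14, edgeR adjusted p = 0.127). Ugt2b1 and Sult2a1 were the only tested members whose groups did not overlap, both lower at 29 °C (4%, against 7.68% of all tested genes in either direction and 3.79% lower). Sult2a1 stood at -1.78 (SE 0.57, edgeR adjusted p = 0.228).

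Between 6 and 22 °C no member passed edgeR's test, against 0.0333% of all tested genes. There were 10 members at an unadjusted p under 0.05 (11.9% of all tested genes), and DESeq2 called 1, Gsta2 (1.19% of all genes), while limma voom called 0 (0.0267%). The log2 fold change was above 0 in 40 of 50 members, with a median of 0.34, while 52.5% of all tested genes were below 0. In the 8 libraries lacking H2-Ea-ps counts it was above 0 in 27 of 50, with a median of 0.04. Sult1d1 and Sult1c2, both at higher values at 6 °C, were the members without overlap (4%, against 6.33% of all tested genes and 3.53% in that direction). Both contrasts with 22 °C share libraries with each other and with the contrast of 29 and 6 °C.

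With a term for the H2-Ea-ps libraries, 22 of 50 members were lower at 29 than at 6 °C and none was higher (44%, against 12.6% of all tested genes in either direction and 6.23% lower). All 5 genes above were among them. The other 17 were Ugt2b5, Ugt2b34, Ugt2b35, Ugt2a3, Ugt1a10, Sult1a1, Sult2a1, Sult2a2, Sult2a8, Sult5a1, Gsta2, Gsta3, Gsta4, Gstm7, Gstt1, Gstt3 and Gsto1. In that fit Ugt2b5 fell by 0.88 (SE 0.13, edgeR adjusted p = 0.00158) and Gstt3 by 1.40 (SE 0.21, adjusted p = 0.00167). All 6 tested Ugt2b genes and all 3 tested Gsta genes passed there. Within the 8 libraries that lacked H2-Ea-ps, 16 members were lower and none higher (9.91% of all genes tested there passed), of which 15 also passed with the term. With the term and without library 11, 20 members passed (8.58% of all genes). Without the term, DESeq2 called 12 members (7.97% of all genes) and limma voom 10 (7.40%).

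With the same term, 6 members were lower at 29 than at 22 °C (12%, against 3.44% of all tested genes and 1.88% lower), namely Ugt2b1, Ugt2b37, Sult2a2, Sult2a8, Gsta4 and Gstm6. Without library 11 this count was 2 (0.657% of all genes), Ugt2b1 and Ugt2b37. Between 6 and 22 °C it was 0, against 0.367% of all tested genes. Within the libraries that lacked H2-Ea-ps, where 22 °C keeps only libraries 5 and 6, 15 members were lower and Gstp1 was higher at 29 than at 22 °C (17.1% of all genes passed). There, 4 members were higher and Gstm6 was lower at 6 than at 22 °C (6.69% of all genes).

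The 4 libraries with H2-Ea-ps stood apart in 9 of 50 tested members, 18%, against 9.38% of all tested genes. The 4 libraries were lower in 6 of them (4.78% of all tested genes) and higher in 3 (4.60%). Of these 3, Sult2a4 and Sult2a6 had enough counts to be tested only through the 4 libraries, so the share draws no support from them. Gstm1 held 339, 233, 316 and 239 CPM in libraries 1, 7, 8 and 9, and 524 to 960 CPM in the other 8. Gstm3 held 4.83, 2.87, 4.11 and 3.01 CPM there, against 27.0 to 68.7 CPM. Of the 50-base words of Gstm1 and Gstm3, 18.9% and 28.8% occur in another gene. Gstm4, Gstm7, Gstt1 and Gsto1, an omega-class enzyme that reduces dehydroascorbate, were lower in these 4 libraries too. All 9 genes were picked by this separation over all 12 libraries, so it holds within every temperature group by selection.

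Sult2a4 and Sult2a6 went the other way. Sult2a4 held 12.1, 5.68, 5.97 and 2.24 CPM in libraries 1, 7, 8 and 9 and at most 0.203 CPM elsewhere. Of its 50-base words, 25.5% occur in another gene. Sult2a6 held 9.29, 6.71, 5.002 and 3.01 CPM and had no count in the other 8, which allows up to 0.394 CPM in the shallowest of them by 3 counts, for counting error only. Both were picked by this separation, so their pattern by library is fixed by selection, as is that of Ugt1a6a. Ugt1a6a, which glucuronidates planar phenols, held 19.1 to 29.5 CPM in the 4 libraries and 5.23 to 17.7 CPM in the others. Because library 1 alone at 6 °C and library 9 alone at 29 °C held more than 0.203 CPM of Sult2a4, the log2 fold change of Sult2a4 between 29 and 6 °C (-2.40, SE 1.96, edgeR adjusted p = 0.547) rests on those libraries.

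**Figure D5:**
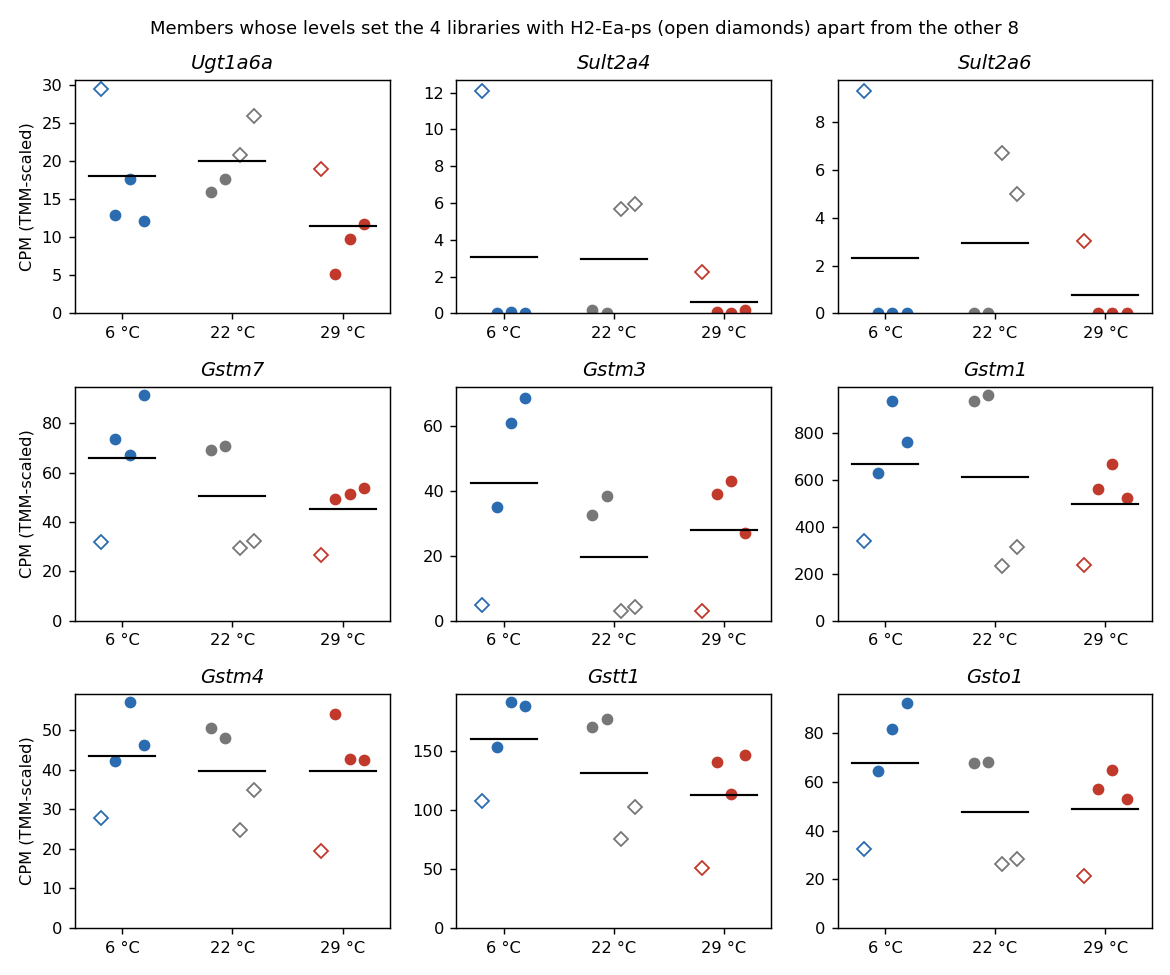
CPM (TMM-scaled) by library at 6, 22 and 29 °C for the 9 tested members that separated the 4 libraries with H2-Ea-ps counts (open diamonds) from the other 8 (filled circles), with a line at the mean of 4 libraries. The diamonds lie above all circles for Ugt1a6a, Sult2a4 and Sult2a6 and below them for the other 6 genes.

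The 8 members with too few counts to test were Ugt2b38, Sult2a7, Sult2b1, Sult4a1, Sult6b2, Gsta1, Gstp2 and Gsto2. Library 11 accounted for the highest value of 4 of them. Sult6b2 stood at 33.9 CPM there and at most 0.0923 CPM elsewhere, Ugt2b38 at 3.98 CPM against at most 0.669, and Sult2b1, the cholesterol sulfotransferase, at 2.87 CPM against at most 0.0720. Gsta1 reached 0.704 CPM. Of 20 intestinal epithelial markers, 19 were highest in library 11, and 18 of the list without Apoa4 and Mttp, which hepatocytes express, summed to 851 CPM there and to 64.3 to 94.1 CPM in the other libraries. Akp3, an intestinal alkaline phosphatase, was at 277.5 CPM in library 11 and at 0 in the rest. Sult2a7 reached 3.02 CPM, in library 3, and Gstp2, Gsto2 and Sult4a1 stayed under 1 CPM.

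The supply of co-substrates was read from lists of other genes. None of 8 genes for UDP-glucuronate supply and glucuronide breakdown passed between 29 and 6 °C (median log2 fold change -0.03), and Ugdh, which makes UDP-glucuronate, averaged 101 ± 41.95 CPM at 29 °C and 122.7 ± 37.1 CPM at 6 °C. Of 11 tested genes for PAPS supply and sulfate ester breakdown, Suox, the mitochondrial sulfite oxidase that makes sulfate, fell by 1.05 (76.7 ± 15.7 against 159 ± 49.0 CPM, SE 0.23, edgeR adjusted p = 0.0324). Papss2, a PAPS synthase, averaged 160 ± 59.0 against 328 ± 35.8 CPM without overlap (-1.03, SE 0.32, edgeR adjusted p = 0.104). Of 19 genes of glutathione metabolism, Ggt6, a gamma-glutamyltransferase family gene, fell by 1.28 (SE 0.29, edgeR adjusted p = 0.0369). Gclc, which catalyses the first step of glutathione synthesis, averaged 203 ± 33.9 against 268 ± 87.6 CPM (-0.40, adjusted p = 0.480). With the H2-Ea-ps term, edgeR called 1 of the 8 UDP-glucuronate genes higher at 29 °C, 3 of the 11 PAPS genes lower, and 6 of the 19 glutathione genes lower and 1 higher.

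None of 22 other conjugation enzymes passed between 29 and 6 °C, with 17 below 0 and a median of -0.50. The 15 transporters of conjugates gave no call either, with 10 below 0. Of 23 receptors and transcription factors of conjugation genes, 1 passed: Esr1, the estrogen receptor alpha, fell by 1.02 (60.3 ± 10.3 against 122 ± 14.6 CPM, SE 0.20, edgeR adjusted p = 0.0249). The xenobiotic receptors did not pass, with Nr1i2 (PXR) at 0.42 (edgeR adjusted p = 0.374), Nr1i3 (CAR) at -0.06 (adjusted p = 0.951), Ahr at -0.15 (adjusted p = 0.757) and Nfe2l2 (Nrf2) at 0.29 (adjusted p = 0.667). Of 23 tested target genes of those receptors, none passed, with 18 below 0 and a median of -0.43. Of 14 tested sex-biased liver genes, Cyp7b1, an oxysterol hydroxylase, fell by 0.87 (SE 0.20, edgeR adjusted p = 0.0436). In all these lists no gene was higher at 29 °C by the test with 3 group means. With the H2-Ea-ps term, 11 of the 22 other conjugation enzymes were lower at 29 °C and 3 higher, 7 of the 23 target genes and 4 of the 14 sex-biased genes were lower, 1 of the 23 receptors and factors was lower, and of the 15 transporters 1 was lower and 1 higher.

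Markers of cell types in the liver also moved between 29 and 6 °C, and their part in the members' values was not tested. Of the 7 tested hepatocyte markers 4 were below 0 (median -0.05), and their sums ranged from 93890 to 138900 CPM at 6 °C and from 86100 to 172000 CPM at 29 °C. Of the 9 periportal markers 8 were below 0, with a median of -1.05 and none called, and sums of 11180 to 20560 CPM at 6 °C against 4926 to 11100 CPM at 29 °C, which did not overlap. Of the 9 pericentral markers 8 were below 0 too (median -0.58), and Oat fell by 1.02 (SE 0.25, edgeR adjusted p = 0.0461), with sums of 4269 to 8875 against 3971 to 5674 CPM. All 9 Kupffer cell markers were above 0 (median 0.62, sums 404 to 754 against 497 to 1101 CPM), and so were all 8 neutrophil markers (median 1.17, 30.7 to 521 against 363 to 1264 CPM), with none called. The other cell types of the liver lay mostly above 0 too, again with none called. This held for 7 of 7 tested erythroid markers (median 1.18, sums 113.5 to 217.1 CPM at 6 °C against 117.8 to 473.3 CPM at 29 °C), 8 of 8 endothelial markers (0.24, 479.3 to 651.9 against 594.5 to 778.4 CPM) and 6 of 7 cholangiocyte markers (1.08, 36.4 to 62.4 against 36.3 to 97.0 CPM). It held as well for 5 of 6 lymphocyte markers (0.45, 49.8 to 107.0 against 97.8 to 160.4 CPM) and 6 of 8 stellate cell markers (0.10, 473.1 to 880.8 against 557.9 to 691.6 CPM). With the H2-Ea-ps term, 6 of the 9 periportal and 5 of the 9 pericentral markers were lower at 29 °C and 0 of the 7 hepatocyte markers was called, while 1 marker each of endothelium, neutrophils, lymphocytes and erythroid cells was higher. No marker of these 10 lists was at 0 in all libraries. The non-coding transcript Gm26917 took 1.66% to 5.82% of counts at 6 °C and 5.27% to 8.31% at 29 °C, and mitochondrial genes took 1.46% to 5.15% and 1.10% to 2.93%.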

How the data were processed

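Liver total RNA was depleted of ribosomal RNA before sequencing (per the labels' protocols). The authors deposited 1 table of unnormalized counts, in whole reads, with a symbol, a gene type and a versioned Ensembl ID on each row (per the file headers). According to the submitters' processing notes, STAR 2.6.1a, bcl2fastq and DESeq2 1.44.0 were used, with the build GRCm38. How reads were counted, and whether by strand, is not given in the sources used here, so overlapping genes cannot be told apart with certainty. Of 55421 rows, 54673 matched GENCODE vM21 by exact ID.

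All 12 libraries entered 1 edgeR 4.0.16 fit (R 4.3.3, TMM scaling, genes kept by filterByExpr, two-sided robust quasi-likelihood tests) that had 3 group means, no covariate and 9 residual degrees of freedom. Benjamini-Hochberg adjustment covered all 15006 tested genes, with a threshold of 0.05 and no minimum fold. The common biological coefficient of variation was 0.321. SE is the size of the log2 fold change divided by the square root of F. The fit was also run on simulated counts with known changes. No simulated library was set apart by H2-Ea-ps or intestinal transcripts, so that run cannot test the fit for either. The H2-Ea-ps term marks the 4 libraries with at least 1 CPM of that pseudogene. All replicate pairs differed beyond sampling noise (lowest chi-square per degree of freedom 12.7).

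The members, gene lists and alternatives were chosen with earlier results of these data known. Named members were Sult1d1, every member called, up to 12 called with the H2-Ea-ps term, and in each family the 3 highest per kilobase and the 2 with the widest fold change between 29 and 6 °C, 21 in all. Other members named were chosen after their values were seen. The alternatives changed the scaling (size factors of DESeq2, upper-quartile factors, library sizes without the 10 most abundant and mitochondrial genes), the filter (none, or at least 1 CPM in 4 libraries), the test (DESeq2 1.42.0, voom with quality weights in limma 3.58.1, a minimum absolute log2 fold change of 1), the covariate (the H2-Ea-ps term, with or without library 11) and the libraries (the 8 compared, those lacking H2-Ea-ps, each left out in turn). The values of 1 listed gene are not reported here.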

Additional observations from a re-analysis of the deposited data

Results flagged for a closer look

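Single libraries stood far from the other 3 of their temperature group in 9 of 142 gene and group pairs examined (Dixon's ratio over its critical value for 4 samples, genes with a group mean of at least 1 CPM). Chance alone gives about 1 in 20 groups, a rate near the one seen. At 29 °C, library 11 was high for Sult6b2 (33.86 CPM, others at 0), Ugt2b38 (3.975 CPM, others at most 0.114) and Ugt1a7c (14.49 CPM, others 3.73 to 5.02), and this library also held the intestinal markers. At 6 °C, library 1 was high for Sult2a4 (12.1 CPM) and Sult2a6 (9.29 CPM), and at 29 °C library 9 was low for Gstm7 (26.47 CPM, others 49.4 to 53.9). Libraries 1 and 9 are the ones with H2-Ea-ps counts in their groups. Sult2a4, Sult2a6 and Gstm7 were among the genes picked above for setting such libraries apart. Sult2a8 was high in library 12 at 29 °C (41.21 CPM, others 10.7 to 13.8). At 22 °C, library 6 was high for Ugt1a8 (5.296 CPM, others 0.128 to 0.821) and low for Ugt3a1 (12.83 CPM, others 19.04 to 20.3).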

How the results depend on the processing

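Between 29 and 6 °C, 5 members passed. The count was 12 with DESeq2, 10 with limma voom, 22 with the H2-Ea-ps term, 16 in the 8 libraries lacking H2-Ea-ps and 20 with the term and no library 11, and 1 to 5 when 1 library was left out (1 without library 10, 2 without library 2, 3, 4, 9 or 11, 3 without library 12). Every called member was lower at 29 °C in all of these. Between 29 and 22 °C the count of 0 became 3, 1, 6, 16 and 2 in the same order, and 0 to 1 with 1 library left out. Between 6 and 22 °C it became 1 with DESeq2 and 5 in those 8 libraries, and stayed at 0 with each library left out. Over all tested genes, the 379 calls between 29 and 6 °C became 1196 with DESeq2, 1110 with limma voom, 1884 with the term, 1504 in those 8 libraries, 1305 with the term and no library 11, 196 with a minimum fold, and 41 to 439 with 1 library left out. For 29 against 22 °C, the 0 calls became 15 with no low-count filter, 325, 43, 516, 2594 and 100, in the order of tests above, and 0 to 78 with 1 library left out. For 6 against 22 °C, the 5 calls became 178 with DESeq2, 3 with the 8 libraries compared, 55, 1015 and 36 with the last 3 settings, and 3 to 7 with 1 library left out. Values of the named members were recomputed one by one for 29 against 6 °C. For contrasts with 22 °C this was done only for members called with 3 group means or, in the same contrast, with the H2-Ea-ps term. Among the values so recomputed, direction turned for 2 that passed no test. Sult2a4 between 29 and 6 °C, at -2.40 with all libraries, ranged from -5.16 (without library 9) to 3.90 (without library 1). Ugt2b37 between 6 and 22 °C stood at -0.21 in those 8 libraries. Counted over all tested members, the values below 0 between 29 and 22 °C went from 43 of 50 to 33 of 51 without library 6, and those between 6 and 22 °C from 10 of 50 to 23 of 50 in those 8 libraries. Between 29 and 6 °C the values above 0 went from 4 of 50 to 7 of 50 in those 8 libraries and to 6 of 50 with limma voom. The cause of these shifts was not tested. No paired analysis was possible because the labels number the libraries from 1 to 12 and no number occurs in 2 groups. With 4 libraries a group, members of a few CPM, such as Ugt2b37, rest on few counts.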
